A study of Mus musculus with 60 samples.

Results

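Trimethylation of histone H3 at lysine 27 (H3K27me3) was compared at day 3 of neural differentiation between mouse cells with a catalytically dead Tet1 (MUT) and wild-type (WT) cells. The comparison rests on 4 of the 30 H3K27me3 libraries of the series (60 samples in all, the other 30 with control IgG), chosen by genotype and day from the sample labels: the MUT lines CM59 and CM69 and the WT lines WT70 and WT72. In MUT cells both Tet1 alleles carry substitutions in the active site, made by Cas9 and homology directed repair in clones of a single male (B6 × 129S6)F1 embryonic stem cell (ESC) line, so that the protein is still made but does not oxidise 5-methylcytosine. All 4 lines bear the same strain label, each MUT line is 1 clone, and the sources used here do not say whether WT70 and WT72 are clones that went through mock transfection. ESCs were grown without feeders for the conversion and cultured in serum-free N2B27 medium with bFGF until collection at day 3, with no XAV, the Wnt pathway inhibitor that other samples of the series received. Tet1 knockout (KO) lines KO1 and KO15 at the same day are set beside these libraries for some results only.

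H3K27me3 is written by Polycomb repressive complex 2, which settles on CpG-rich promoters of developmental regulators that are silent or poised. As ESCs turn into neural progenitors, the mark is lost from genes that are switched on and kept, or gained, at those of other lineages. TET1 oxidises 5-methylcytosine and also binds Polycomb-occupied CpG islands through parts of the protein that do not need its enzymatic activity, which is why a catalytically dead protein is informative beside a knockout. The files record where a peak was called and how much signal it held. They do not check the mutation itself, and the Tet1 promoter had no peak in any of the 30 libraries. The mark was measured in bulk, so fewer cells that carry it and less of it per cell cannot be told apart. As a check of the assay, all 39 Hox promoters were called in both MUT lines and in WT72, and 38 in WT70. Of 25 housekeeping and 20 germline promoters, 0 were called in any of the 4 libraries.

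The main observation concerns promoters at which both MUT lines had a peak and neither WT line did. The reference sequences of 4 of them (RefSeq, GRCm38.p6, 250 bases before to 50 bases after the gene start, 5′ to 3′, CG dinucleotides in capitals) are shown because Ifnz and Gm13289 stand for the strongest such region, Pou3f2 for neural regulators and Tgfb1 for signalling genes. They lie at chr4:88781881-88782180 (+), chr4:88776512-88776811 (+), chr4:22488317-22488616 (-) and chr7:25686752-25687051 (+).
Ifnz: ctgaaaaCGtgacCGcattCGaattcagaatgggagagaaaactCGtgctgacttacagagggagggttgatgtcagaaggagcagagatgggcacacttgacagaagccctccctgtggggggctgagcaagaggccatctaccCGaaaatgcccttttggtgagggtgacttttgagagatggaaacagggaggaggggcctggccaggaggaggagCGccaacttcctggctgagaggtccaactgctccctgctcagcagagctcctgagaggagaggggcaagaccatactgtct
Gm13289: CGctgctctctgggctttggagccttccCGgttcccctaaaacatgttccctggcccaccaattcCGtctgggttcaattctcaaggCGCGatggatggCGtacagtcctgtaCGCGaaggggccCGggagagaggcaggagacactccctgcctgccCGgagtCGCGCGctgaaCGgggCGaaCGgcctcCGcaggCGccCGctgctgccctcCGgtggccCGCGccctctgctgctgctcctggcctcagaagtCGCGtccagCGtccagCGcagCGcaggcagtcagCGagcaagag
Pou3f2: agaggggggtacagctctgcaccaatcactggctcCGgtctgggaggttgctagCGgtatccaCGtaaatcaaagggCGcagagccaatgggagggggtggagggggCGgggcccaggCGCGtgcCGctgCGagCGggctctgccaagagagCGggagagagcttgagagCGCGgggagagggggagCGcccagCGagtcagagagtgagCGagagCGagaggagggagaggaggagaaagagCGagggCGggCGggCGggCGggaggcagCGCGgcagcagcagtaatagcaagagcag
Tgfb1: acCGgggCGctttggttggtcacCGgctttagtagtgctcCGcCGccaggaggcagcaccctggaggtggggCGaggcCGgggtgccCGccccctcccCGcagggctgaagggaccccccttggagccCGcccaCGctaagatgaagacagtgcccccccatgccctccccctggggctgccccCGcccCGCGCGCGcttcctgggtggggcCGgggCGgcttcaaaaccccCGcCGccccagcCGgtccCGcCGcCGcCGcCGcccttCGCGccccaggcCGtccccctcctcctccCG
All 300 bases of each of these windows were inside a peak in CM59 and in CM69, and 0 bases were in WT70 or WT72. The windows hold 6, 28, 24 and 30 CG dinucleotides, in the order shown. The median over the 16531 genes with a sequence was 14. It was 26.5 over the 118 MUT-only promoters that had one, and 20 over the 509 promoters called in all 4 libraries.

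Mutant libraries had more but, by the median, narrower peaks than WT libraries (the plot of peaks, covered bases and widths per library). A peak here is an interval that the authors' caller separated from the IgG control. The numbers of peaks were 1627 in CM59, 1445 in CM69, 966 in WT70 and 1133 in WT72, or 1536 ± 129 in MUT and 1050 ± 118 in WT (SD, n = 2), a ratio of 1.46. Both MUT lines lay above both WT lines. With 2 lines against 2 no exact permutation test can give a two-sided p below 0.33, so these values are given without one. Peaks covered 10.8 Mb in CM59, 7.89 Mb in CM69, 6.13 Mb in WT70 and 9.04 Mb in WT72. Here the groups overlapped, as WT72 lay above CM69, and the ratio of 1.23 was smaller than the spread between lines. Median widths were 5084 bp in CM59, 4307 bp in CM69, 5097 bp in WT70 and 6092 bp in WT72, so that the MUT mean of 4696 ± 549 bp was 0.839 of the WT mean of 5594 ± 704 bp, although CM59 and WT70 were nearly equal.

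**Figure D1:**
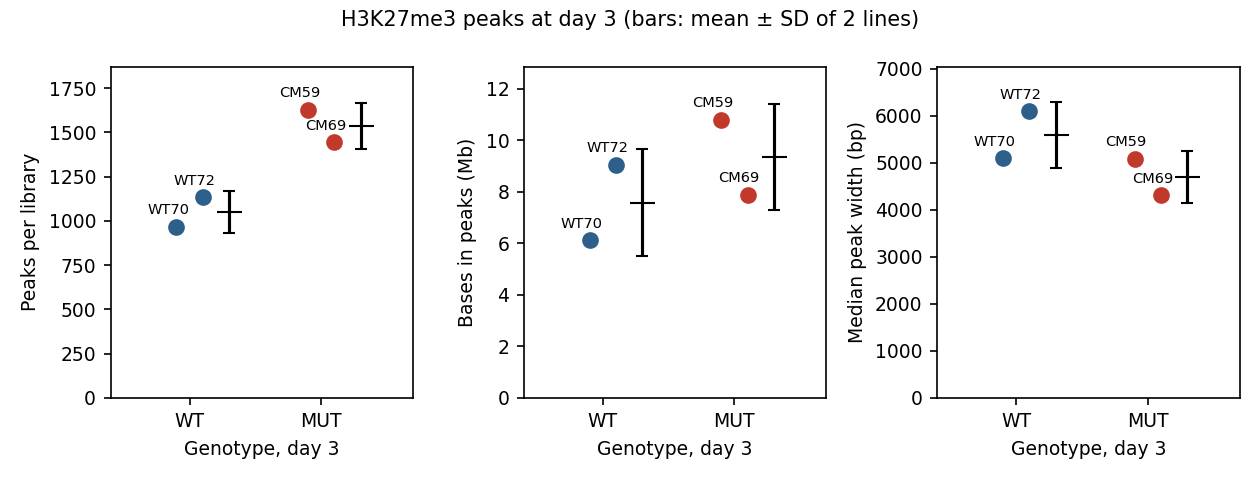
Number of H3K27me3 peaks (left), bases covered by peaks in Mb (middle) and median peak width in bp (right) at day 3, with 1 point per line and the mean with SD of the 2 lines of each genotype in black. Both MUT lines lie above both WT lines in the number of peaks, while the covered bases overlap between the genotypes.

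Read depth is not recorded in the peak files, and the signal is not scaled for it. The weakest peak that was called held a total signal (coverage summed over the peak) of 28133 in CM59 and 26568 in CM69, against 30893 in WT70 and 48985 in WT72. The floor of calling was therefore lower in both MUT libraries than in both WT libraries, and its part in the number of peaks was not tested. The comparisons at an equal number of peaks given below fix that number and cannot decide it.

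For comparison across libraries, overlapping peaks from the 30 libraries were joined, and the 3818 resulting regions with a call in at least 2 libraries were used. Of these, 1488 were called in at least 1 of the 4 libraries, and 748 in all 4. Both MUT lines and neither WT line shared 190 regions, which is 4.98% of the 3818. The number was 440 without CM69 and 382 without WT72. Leaving out a line drops a condition, so the number can only stay or rise. The opposite pattern, a peak in both WT lines and in neither MUT line, was found at 2 regions (0.0524%). Further, 250 regions were called in CM59 alone, 192 in both MUT lines and WT72, 23 in CM69 alone, 15 in WT72 alone and 1 in WT70 alone.

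The peak sets were nested in each other in the order of their size. Of the 778 regions of WT70, 98.5% were called in WT72, 97.2% in CM69 and 99.5% in CM59. Of the 1166 regions of CM69, 97.5% were called in CM59 but 81.0% in WT72 and 64.8% in WT70. The share of regions in common (regions called in both over regions called in either) was 77.3% between the MUT lines, 74.7% between the WT lines and between 53.6% and 76.6% for a MUT with a WT line, the last for CM69 and WT72. Genotype therefore did not separate the 4 libraries by this measure, as CM69 shared about as much with WT72 as with CM59.

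Regions called in MUT alone belonged to the weak end of the MUT peaks. Within each library, peaks were ranked by their total signal, and a percentile of 100 stands for the strongest. The strongest peak of the 190 regions lay at a median percentile of 24.5 in CM59 and 13.7 in CM69. In CM69, 148 of 190 (77.9%) lay in the weakest 25% of the library, and in CM59 99 (52.1%) did. Only 2 of the 190 were above the median of both MUT libraries, the Ifnz cluster and Hapln4. At regions called in all 4 libraries the corresponding medians were 74.0 and 69.4. When the peaks of CM69 were divided by signal into 10 bins of equal size, the strongest bin was overlapped by WT72 peaks at 99.3% and by WT70 peaks at 99.3%, bin 8 at 67.6% and 31.0%, and the weakest bin at 31.0% and 16.6% (the plot of overlap by bin). In the weakest bin of CM59 peaks the shares were 7.36% and 3.68%, and the other MUT line itself reached 20.2%.

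**Figure D2:**
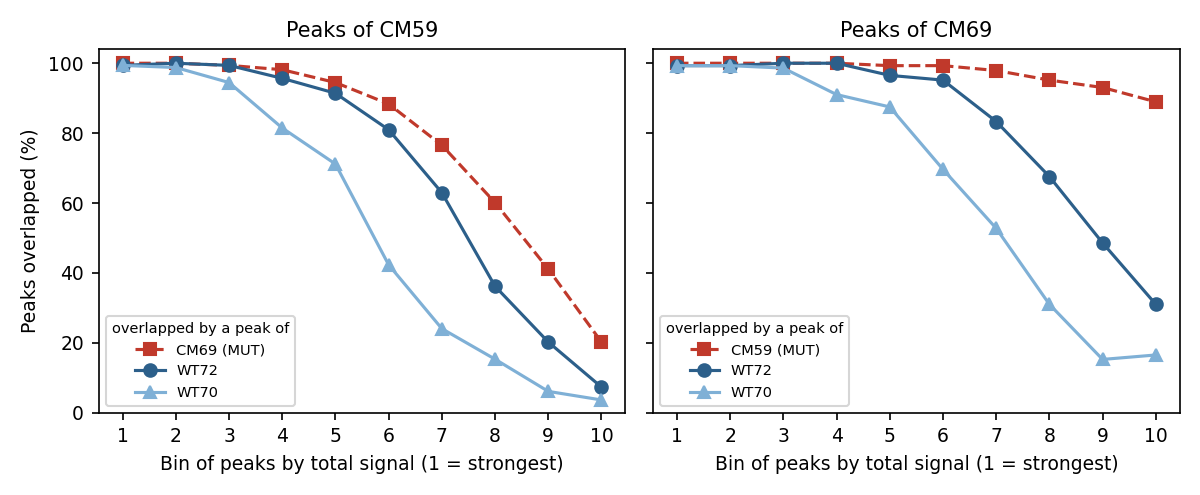
Percent of the peaks of CM59 (left) and CM69 (right) that a peak of each other library overlapped (vertical axis), over 10 bins from the strongest to the weakest total signal (horizontal axis). Nearly all strong peaks are shared, and the share with WT lines falls from the middle bins on.

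With the 966 strongest peaks of each library, as many as the smallest held, the excess on the MUT side was not seen. An equal number of peaks takes out an excess in number by construction, so the origin of the excess was not tested by it. Both MUT lines and neither WT line then shared 26 regions, and both WT lines and neither MUT line 29. Of the 26, 11 were among the 190. In another view, chosen after seeing the data, the signal of each region was divided by the median over the 748 common regions of its library. The weakest peak was then 0.241 in CM59, 0.294 in CM69, 0.510 in WT70 and 0.369 in WT72. The 190 regions had a median of 0.340 in CM59 and 0.356 in CM69. In only 4 of the 190 (2.11%) did both MUT values exceed the weakest peak of both WT libraries. These 4 were the Ifnz cluster at 4.61 and 4.63 times the common median in CM59 and CM69, Hapln4 at 0.738 and 0.740, Adcy5 at 0.782 and 0.601 and Adcy1 at 0.531 and 0.616 (both genes encode adenylyl cyclases).

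The region that stood farthest from the floor was the interferon zeta cluster (chr4:88771134-88812221, GRCm38), a run of near-identical genes next to Ifnz, which encodes a type I interferon. It is 41.1 kb wide, of which 27.7% is exonic and the rest intergenic, and holds the promoters of 12 genes, all 12 called in both MUT lines and in neither WT line. Peaks covered 35.4 kb of it in CM59 and 33.0 kb in CM69, at percentiles 98.4 and 94.3, and none of it in WT70 or WT72. The 2 KO lines had 33.7 and 27.9 kb at day 3. At day 2, peaks covered 35.5 kb in WT70, 36.5 kb in WT72, 35.4 kb in CM59 and 39.3 kb in CM40, the other MUT line sampled that day. At day 5 neither WT line had a peak there, CM59 had 10.1 kb and CM69 none. All 3 genotypes thus had the domain at day 2 and both WT lines lacked a peak from day 3 on, while both MUT lines had it at day 3. At day 0 the lines differed within genotypes, with 10.7 kb in WT70 and 35.4 kb in WT72, and with no peak in CM59 and 33.8 kb in CM40. Reads from its gene copies are hard to place: 79.7% of the 50-base words of the region occur in it more than once, against a median of 0 over the other regions, and the 300-base Ifnz window is identical to those of Gm13276 and Gm13277. Values for single genes of the cluster are therefore uncertain, and the cluster counts as 1 region.

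Promoters gave the same picture as regions. A promoter was called when a peak overlapped 1.5 kb to either side of a start of the gene's protein-coding transcripts. Of 3179 genes called in at least 2 of the 30 libraries, 1351 were called in CM59, 1096 in CM69, 752 in WT70 and 986 in WT72. Both MUT lines and neither WT line shared 164 promoters (5.16%), and the opposite pattern was found at 1 (0.0315%). At the equal number of peaks the counts were 35 and 24, and 11 of the genes in the first count belong to the Ifnz cluster.

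By the mean percentile in the MUT lines, the leading promoters after the first 11 genes of the Ifnz cluster were Amn, Zic1, Hapln4 and Pou3f2. Amn encodes amnionless, a membrane protein of the receptor that takes up vitamin B12. Its promoter peaks lay at percentiles 76.0 in CM59 and 81.9 in CM69, and its region (chr12:111267778-111278319, 33.1% intronic and 17.5% exonic) was covered over 8.56 kb in CM59, 8.12 kb in CM69, 4.19 kb in WT70 and 4.48 kb in WT72. The region was called in all 4 libraries, and it was the part over the start that WT lines lacked. Hapln4, a link protein of the extracellular matrix in the brain, was covered over 7.84 kb in CM59 and 7.64 kb in CM69 (chr8:70078455-70092431, 33.3% exonic and 31.2% intronic) and had no peak in WT70 or WT72. Its KO values were 7.79 and 8.17 kb, while lines of 1 genotype differed on other days, with no peak in CM59 and 12.4 kb in CM40 at day 2, and with 8.53 kb in CM59 and no peak in CM69 at day 5.

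Pou3f2 (also known as Brn2) and Zic1 encode transcription factors of the early neural plate and forebrain, and both sit in broad Polycomb domains that all 4 libraries share. The Pou3f2 domain (chr4:22473384-22502350, 19.3% exonic) was covered over 19.8 kb in CM59, 15.4 kb in CM69, 6.52 kb in WT70 and 11046 bp in WT72, and the peak over the start itself was present in MUT lines only. Both MUT values lay above both WT values. KO1 had 26.2 kb and KO15 11.6 kb. At day 2 the 2 WT lines had 27.8 and 27.7 kb, CM59 had 21.2 kb and CM40 27.9 kb, so the covered part was lower at day 3 than at day 2 in both WT lines. The Zic1 domain, which also holds Zic4 (chr9:91348127-91412389), was covered over 41.2 kb in CM59 and 25.7 kb in CM69 and over 26.7 kb in WT70 and 33.2 kb in WT72, so that its width did not separate the genotypes although the Zic1 promoter was called in MUT lines only. The Zic4 promoter was called in all 4 libraries. The Zic1 call did not rest on a peak over the RefSeq start, where 0 of 300 bases were in a peak in each of the 4 libraries. With windows of 3 kb, the Zic1 and Amn promoters were called in all 4 libraries.

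Of the 2 regions with peaks in both WT lines and no MUT line, 1 had no promoter (chr7:24927880-24935598, 91.7% intronic). Its peaks covered 3490 bp in WT70 and 6014 bp in WT72 and were among the weaker ones, at percentiles 0.207 and 13.0.

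**Figure D3:**
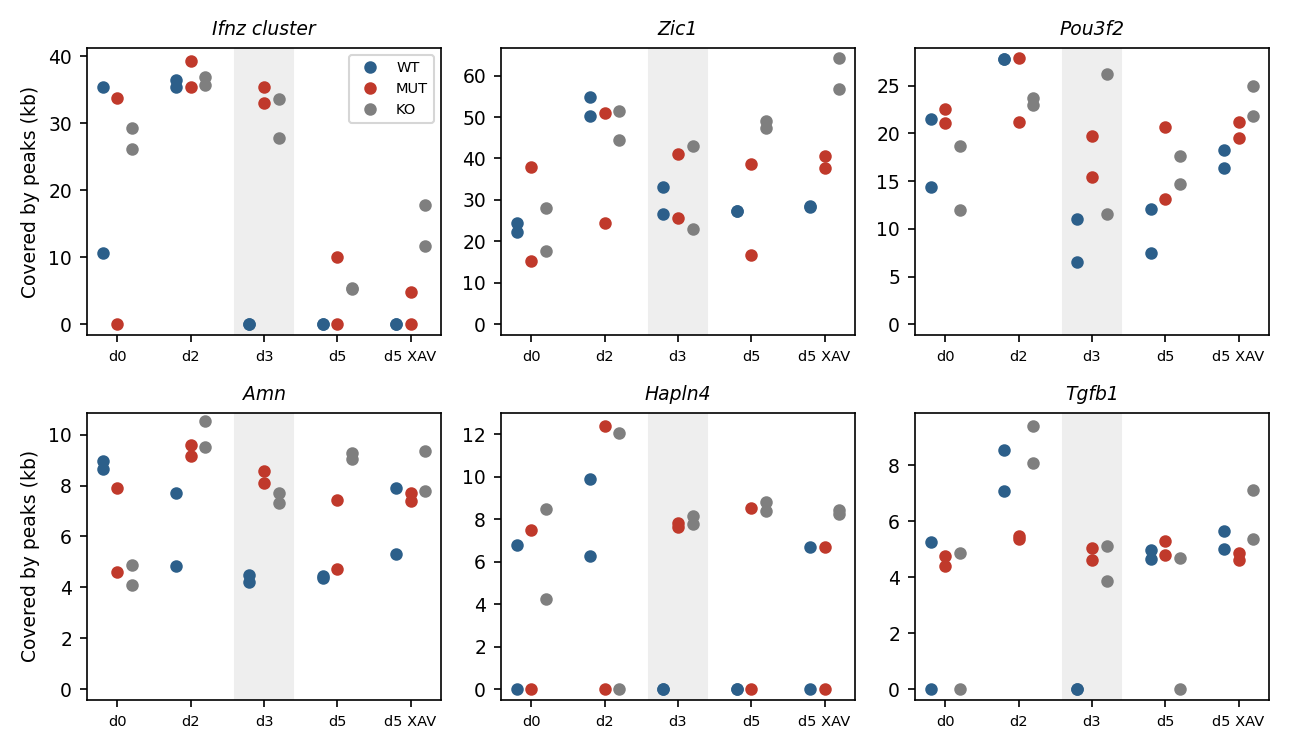
Length covered by H3K27me3 peaks in kb (vertical axes) at 6 regions over the time points (horizontal axes, day 3 shaded), with 1 point per line, WT in blue, MUT in red and KO in grey, and 0 for no peak. The Ifnz cluster and Hapln4 have peaks in both MUT and no WT library at day 3, Pou3f2 and Amn are covered farther in MUT, Zic1 overlaps between genotypes, and Tgfb1 has peaks in both MUT and no WT library at day 3 alone.

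The MUT-only regions were followed to other days to see on which days each genotype had them. Most were regions that WT cells had at day 2: 152 of 190 (80.0%) were called in both WT lines at day 2, compared with 45.1% of all 3818 regions. At day 5, 44 of the 190 (23.2%) were called in both WT lines and 119 (62.6%) in neither, close to the 26.3% and 67.6% of all regions. Both MUT lines had 58 (30.5%) at day 5, beside 27.4% of all regions. Of 190, 185 (97.4%) were called in at least 1 of the 10 WT libraries, compared with 88.0% of all regions. At day 5, 10 (5.26%) had a peak in both MUT and no WT lines, as did 2.04% of all regions. In KO lines at day 3, 149 (78.4%) were called in both, compared with 36.0% of all regions, and KO libraries had more peaks (1872 and 1846) than any of the 4. Per library, the 190 regions were called at 91.6% in WT70 and 80.5% in WT72 at day 2, and at 71.1% in CM59 that day, beside 54.7%, 46.3% and 36.4% of all regions (the plot of the 190 regions over time). The 748 common regions were called at 90.1% to 99.7% in these lines at days 0 and 2. The 250 regions of CM59 alone were called at 94.4% in WT70 and 74.0% in WT72 at day 2. For the 192 of both MUT lines and WT72 the shares were 99.5% and 97.4%. In KO1 and KO15 at day 3, the 192 were called at 93.2% and 88.5%. The 250 were called there at 76.8% and 59.6%, and the 190 at 87.9% and 83.7%. High shares in WT at day 2 and in KO at day 3 were thus not particular to the 190.

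The step from day 2 to day 3 can be read within a line for WT70, WT72 and CM59, since CM69 was not sampled at day 2. Of the 2089 regions called in WT70 at day 2, 37.0% were called in it at day 3, and of 1766 in WT72, 56.9%. Of 1389 regions in CM59 at day 2, 87.4% were called at day 3. The regions called at day 3 numbered 778 in WT70, 1013 in WT72 and 1441 in CM59. These numbers cap the share in both WT lines, which had fewer regions than at day 2, but not in CM59. The shares thus cannot be read apart from the number of calls at day 3. The number of peaks was 2180 and 1853 in the WT lines at day 2 and 1585 in CM59, so that CM59 held about as many peaks on both days while both WT lines held fewer at day 3. This rests on 1 MUT line. The number of regions called in both MUT and no WT line was 4 at day 0 and 9 at day 2, against 0 and 76 for the opposite, with CM40 in place of CM69 on both days. It was 78 against 7 at day 5 without XAV, and 4 against 34 at day 5 with XAV, both with the lines of day 3.

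**Figure D4:**
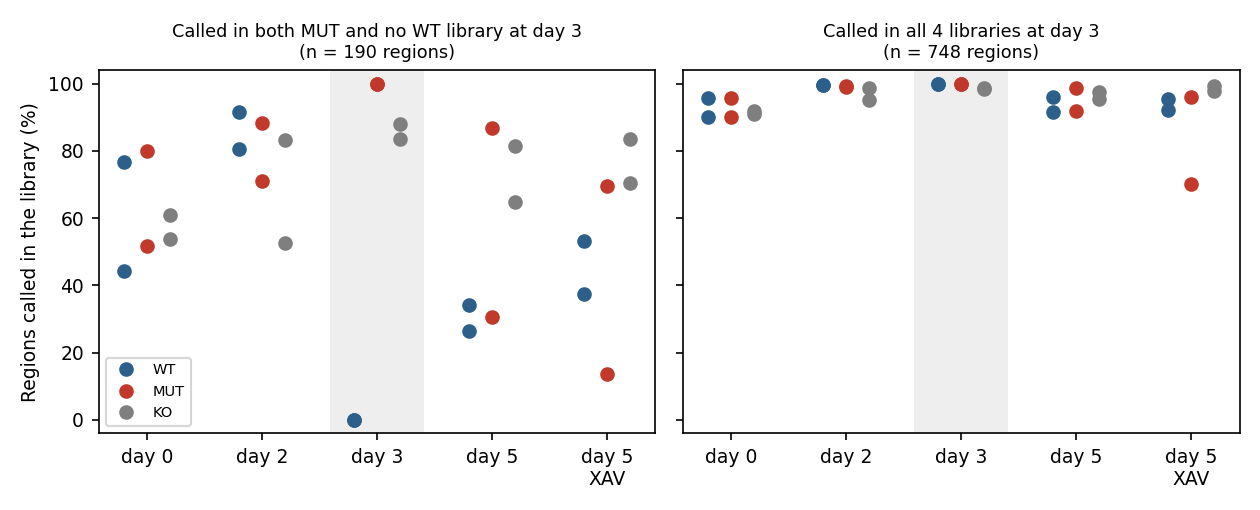
Share of regions called in a library, in percent (vertical axis), at each time point (horizontal axis, day 3 shaded), for the 190 regions called in both MUT and no WT library at day 3 (left) and the 748 called in all 4 (right), with 1 point per line. The day 3 values of MUT and WT are fixed by the choice of the regions, and at day 2 both WT libraries call over 80% of the 190.

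Over their whole width, the MUT-only regions were close to common regions in GC and CpG content. Their median GC content was 50.6%, against 50.7% in common regions, and the ratio of observed to expected CpG was 0.396 against 0.382. They were narrower, with a merged width of 9.0 kb against 13.6 kb, and 151 of 190 (79.5%) lay at a promoter, compared with 89.6% of common and 78.5% of all regions. The 300-base promoter windows differed more, with a median of 26.5 CG dinucleotides at MUT-only promoters and 20 at those called in all 4 libraries.

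Gene lists were compared by the share of promoters called in each library (the plot of gene lists). For this and every list below, the share is over all genes of the list, also those never called. All called promoters are the 3179 called in at least 2 of the 30 libraries. The denominators are thus unlike, and the values for all called promoters are only a rough measure beside a list. In 7 of 17 lists both MUT lines exceeded both WT lines, and all called promoters did so too, at 42.5% in CM59 and 34.5% in CM69 against 23.7% in WT70 and 31.0% in WT72. The widest gap was that of Nodal, BMP and TGF-beta signalling genes, with 43.8% in CM59, 41.7% in CM69, 18.8% in WT70 and 31.3% in WT72 of 48 promoters, 17.7 points between the means (42.7% ± 1.47 and 25.0% ± 8.84, SD, n = 2). All called promoters differed by 11.2 points. At the equal number of peaks this list differed by 5.21 points, with CM69 at 27.1% and WT72 at 29.2%, so that the groups overlapped. All called promoters then differed by 0.550 points. Its MUT-only members were Bmp8b, a BMP ligand, Tgfb1, the ligand TGF-beta 1, and Id2 and Id3, which encode inhibitors of bHLH transcription factors and are transcribed in answer to BMP. These 4 make 8.33% of the list, beside 5.16% of all called promoters.

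Tgfb1 was covered over 5.04 kb in CM59 and 4.60 kb in CM69 (chr7:25683355-25692865, 52.5% exonic and 42.8% intronic) and Id3 over 6.34 and 3.75 kb (chr4:136131575-136149677), and WT70 and WT72 had no peak at either. Both WT lines had peaks at both genes at day 2. At day 5 they had them at Tgfb1 (4.63 and 4.97 kb), while Id3 had a peak in no MUT or WT line. The Bmp8b peaks were among the weakest of their libraries, at percentiles 3.63 in CM59 and 0.0692 in CM69.

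Neuronal function genes (channels, receptors, transporters and cytoskeletal proteins) were called at 51.3% in CM59, 41.2% in CM69, 28.6% in WT70 and 37.0% in WT72 of 119 promoters. Of these, 9 were called in MUT only (7.56%, beside 5.16% of all called promoters), among them the channels Cacna1h, Kcna3, Kcna6, Kcnk12 and Hcn2, the neurofilament gene Nefl and the ephrin receptor Epha5. The promoter percentiles of these named genes ran from 11 (Kcna6) to 44.3 (Nefl) in CM59 and from 5.26 (Epha5) to 44.4 (Kcnk12) in CM69. At the equal number of peaks the difference of 13.4 points became -0.420 points, beside 0.550 points over all called promoters. Neuroectoderm regulators differed by 3.77 points, both with all peaks and at the equal number (80.2% ± 1.33 in MUT and 76.4% ± 1.33 in WT with all peaks), which is 2 genes, Zic1 and Pou3f2, of 53. These 2 make 3.77% of the list, beside 5.16% of all called promoters. All called promoters differed by 11.2 points with all peaks and by 0.550 points at the equal number. Neuroectoderm was 1 of 2 lists in which both MUT lines stayed above both WT lines at the equal number of peaks. The other was Wnt signalling, with 33.9% in both MUT lines and 30.6% in both WT lines, where CM69 and WT72 had been equal at 40.3% with all peaks.

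Primitive streak and mesoderm genes held 1 MUT-only promoter each, which is 4.55% and 2.94% of these lists, beside 5.16% of all called promoters. Primitive streak genes were called at 63.6% in both MUT lines and 54.5% in both WT lines of 22 promoters, with Mixl1, a homeobox gene of the streak, called in MUT only at percentiles 3.87 and 10.2. At the equal number of peaks CM59 had 54.5%, as both WT lines did, and CM69 59.1%. The mesoderm list of 34 overlapped between genotypes, with 79.4% in CM59, 70.6% in CM69, 67.6% in WT70 and 76.5% in WT72, and held Kdr, the VEGF receptor of blood and vessel precursors, as its MUT-only member. Endoderm, neuronal transcription factors, neural crest and surface ectoderm, Hox clusters and TET, DNMT and Polycomb genes had 0 promoters of this kind. The remaining MUT-only list members were Fzd9, a Wnt receptor, Nr0b1, a nuclear receptor of naive cells, Fgf15, an FGF ligand, and again Bmp8b, in the trophoblast and extraembryonic list. No list held a promoter called in WT only.

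**Figure D5:**
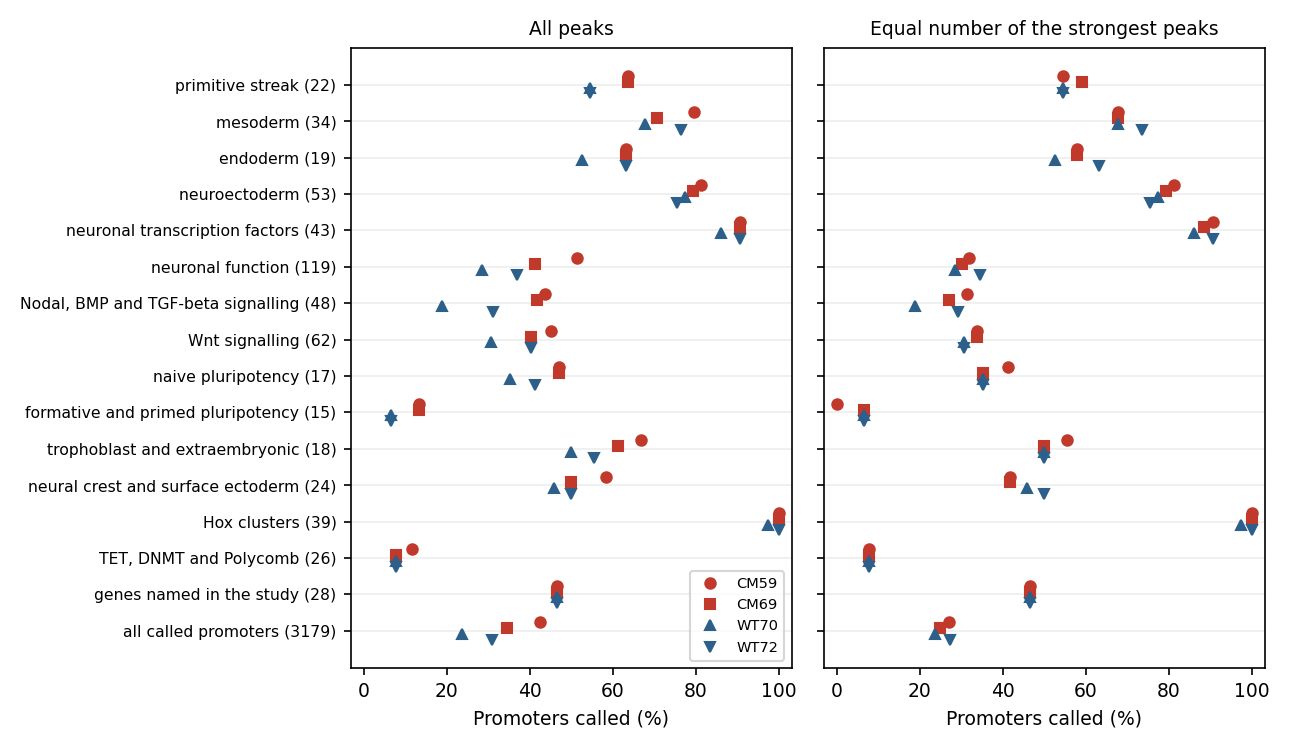
Percent of promoters called per library (horizontal axes) for 15 of the 17 lists and for all called promoters, with the number of genes in brackets, with all peaks (left) and with the 966 strongest peaks of each library (right). MUT lines are red and WT lines blue, the 2 lists with no call are left out, and most of the gap between the colours on the left is not seen on the right. The equal number of peaks on the right takes out a difference in peak number by construction.

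The promoters of 28 listed genes, part of those that the study itself named, were called alike in the 4 libraries. Of these, 13 had a peak in all 4 and 15 in none. Mixl1, which the study also names, is not in this list and was called in MUT only, as given above. The wider region of Twist1, beyond its promoter, had peaks in CM59 (4576 bp), CM69 (2714 bp) and WT70 (4366 bp) and none in WT72. The named genes were taken from the text of the study, which worked with the same lines, and are no independent choice. The 13 were T, Eomes, Sox17, Foxa2, Gata4, Hand2, Pax6, Lhx5, Sox1, Wnt1, En1, Lefty1 and Npr3, and the 15 were Mef2c, Twist1, Myl7, Tnnt2, Spink1, Sox2, Tubb3, Lefty2, Tcf7l1, Brsk2, Sh2d5, Kif17, Tet1, Otx2 and Dnmt3b. T, the brachyury gene of the primitive streak, was covered over 12057 bp in CM59, 9267 bp in CM69, 12939 bp in WT70 and 12577 bp in WT72, at ranks 201, 174, 118 and 209 of the 748 common regions. Eomes had 11120, 4084, 3764 and 6890 bp in the same order, with ranks between 335 and 629, and its lines differed more within than between genotypes. Sox17 had 13701, 11114, 7845 and 12551 bp, and Sox1 had 23901, 21788, 11776 and 23751 bp, where WT70 alone was low. T was covered over 5775 bp in KO1 and 4650 bp in KO15. Of the 28 promoters, 60.7% and 53.6% were called in these KO lines, beside 46.4% in each of the 4 libraries. None of these 13 regions passed the tests of rank or width described next, with adjusted p by limma between 0.584 and 0.929 for rank and between 0.916 and 0.989 for width.

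Where all 4 libraries had a peak, the order of regions by signal was compared, because ranks do not change with the scaling of a library. The ranks of the 748 common regions were turned into normal scores and tested with limma, a moderated linear model. No region passed a Benjamini-Hochberg adjusted p of 0.05 (0 of 748, 0%), the lowest adjusted p was 0.132, and 88 regions (11.8%) had an unadjusted p below 0.05, 42 higher and 46 lower in MUT. Testing log2 signal centred on the library median instead of ranks gave 3 regions higher and 4 lower in MUT, and 18 higher and 69 lower at an unadjusted p below 0.05. Across the regions, Spearman's rho of total signal was 0.935 between the MUT lines, 0.926 between the WT lines and 0.872 to 0.919 between a MUT and a WT line, a description over regions that share libraries.

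The regions with the lowest p were named all the same. The first was that of Nat8l, which makes N-acetylaspartate in neurons, and Gm1673, with rank 334 in CM59 and 334 in CM69 against 692 in WT70 and 682 in WT72 (1.53 normal scores higher in MUT, SE 0.10, adjusted p = 0.132 by limma). Ccdc27 stood at ranks 226 and 360 against 732 and 743. Mapkapk2, a stress kinase, Gcnt4, Plekha6 and Sypl2 followed, with 2 regions that hold no promoter. In the other direction were Gnas, the imprinted gene of a G protein subunit, at ranks 577 and 597 in MUT and 317 and 336 in WT, Robo3, an axon guidance receptor, at 591 and 626 against 366 and 375, Slc6a5, a glycine transporter, at 380 and 396 against 136 and 173, Asmt, and 4 regions with no promoter. In log2 signal, adjusted p by limma was 0.0284 for Ccdc27 (1.48 higher in MUT, SE 0.24), 0.0292 for Nat8l (1.02, SE 0.17), 0.0355 for Mapkapk2 (0.97, SE 0.17), 0.0278 for Slc6a5 (-1.21, SE 0.18) and 0.0168 for Emx2 (-1.57, SE 0.21), a homeobox gene of the forebrain, and 2 regions with no promoter were also lower.

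Widths at the common regions differed as much within as between genotypes. The median covered length per region was 7.24 kb in CM59, 6.05 kb in CM69, 5.47 kb in WT70 and 7.10 kb in WT72, so that CM59 went with WT72 and CM69 was nearer to WT70. Without centring on the library median, the median difference between genotypes was 0.00 on the log2 scale. It was 0.21 between CM59 and CM69 and -0.26 between WT70 and WT72. Also without centring, 89 regions (11.9%) were covered farther in both MUT lines than in both WT lines and 94 (12.6%) less far. Peaks were more broken up in CM69, where 154 of the regions held more than 1 peak, against 109 in CM59, 111 in WT70 and 80 in WT72.

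On log2 covered bases centred on the library median, 4 regions (0.535%) passed an adjusted p of 0.05 in limma, all 4 at 0.0480, 2 wider and 2 narrower in MUT. The wider were Ccdc27 (chr4:154028784-154060798), with 19370 bp in CM59, 11021 bp in CM69, 5013 bp in WT70 and 5276 bp in WT72 (log2 difference 1.42, SE 0.27), and Gm13889 (chr2:93948922-93963491), with 7373, 6063, 2768 and 2753 bp (1.19, SE 0.26). The narrower were Rtn4rl2, a receptor of the Nogo family (chr2:84864667-84890381), with 1935 bp in CM59, 1950 bp in CM69, 4219 bp in WT70 and 4337 bp in WT72 (-1.23, SE 0.26), and a region with no promoter (chr19:44508502-44516632) with 3051, 1869, 5512 and 5236 bp (-1.26, SE 0.27). In all 4 the groups did not overlap. None of the 4 passed without the centring, with the width of the widest single peak in place of the sum, or without CM59.

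Regions of developmental genes came next in both directions without passing. Bmp4, a ligand of mesoderm and surface ectoderm, had 11052 bp in CM59, 7194 bp in CM69, 2143 bp in WT70 and 5706 bp in WT72 (adjusted p = 0.119 by limma). Pou3f2, described above, had an adjusted p of 0.204, and Tfap2b, a factor of neural crest, had 13880, 7991, 3328 and 7226 bp (adjusted p = 0.254 by limma). Emx2 was less covered in MUT, with 14068, 8072, 18898 and 23177 bp (adjusted p = 0.123 by limma), as was Onecut1, with 14574, 8391, 17645 and 19758 bp (adjusted p = 0.352 by limma). Over lists, the median log2 difference in width, centred on the library median, was -0.11 at the 41 regions of neuroectoderm genes. It was -0.20 at 23 mesoderm regions and -0.07 at 9 regions of Nodal, BMP and TGF-beta genes, beside -0.08 over all 748 common regions. Without the centring, the value over all 748 was 0.00, as above.

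The regions that the study deposited as changed in KO cells were called more often in MUT than in WT lines at day 3, as were regions in general. The gain-gain regions (1443) were called at 31.7% in CM59, 23.5% in CM69, 13.7% in WT70 and 19.0% in WT72, and at 43.5% and 36.6% in the KO lines. Loss-gain regions (747) were called at 51.0%, 40.6%, 24.6% and 34.7% in the 4 libraries, and loss-loss regions (790) at 46.8%, 40.9%, 31.9% and 39.5%. All 3818 regions had 37.7%, 30.5%, 20.4% and 26.5%. The WT libraries used here also served to select those lists, so the lower WT values are not independent of the choice, while MUT libraries did not enter it.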

How the data were processed

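H3K27me3 was measured by CUT&RUN, where antibody-tethered nuclease releases the DNA of marked chromatin for sequencing. Per the study's methods, reads were trimmed by quality and length (Trim Galore), mapped locally to GRCm38.p6 (Bowtie), duplicates marked (Picard) and peaks called for each library by the authors with SEACR (stringent, against IgG; version not given in the sources used here). The deposited values are signal, the authors' fragment coverage in whole numbers per peak, summed (used here) and at its highest point, not scaled for depth, so depth and counting error are unknown. Of the deposited lists of regions, only positions were used. The IgG libraries entered only through peak calling.

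Peaks on 21 chromosomes were kept (16 of the 4 libraries fell elsewhere), merged over 30 libraries into 4494 regions and kept when called in at least 2. A call needs 1 bp of overlap. Promoters came from 21853 protein-coding genes of GENCODE M21. As a check of the build, 73.6% to 80.1% of peaks lay at a promoter, and 12.7% to 14.8% after a shift of 1 Mb. Regions in all 4 libraries were tested with limma 3.58.1 (R 4.3.3), MUT minus WT, two-sided, Benjamini-Hochberg over all such regions. Lines are the replicates. The p-values do not rest on the spread between lines at a region alone, because limma moderates each variance toward that of all tested regions. With 2 lines against 2, part of the variance estimate thus comes from other regions, which share the same 4 libraries. Sequences came from RefSeq (GRCm38.p6), which matched 2278 of 3179 called promoters by symbol. Tools were Python 3.11.15, NumPy 2.4.6, SciPy 1.17.1, pysam 0.24.0, samtools 1.23.1 and Matplotlib 3.10.9.

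Genes were named by rule: the 15 promoters highest by mean MUT percentile of each pattern, and list genes with a pattern. Also named were the 8 regions per direction lowest in p by rank and 5 by width, and the listed genes of the study. Some genes the rule picks are not reported here. The comparison and the lists were chosen with earlier results of these data known. Alternatives were an equal number of peaks, a stricter threshold, other regions, overlaps and windows, other ranks and widths, and leaving out each line.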

Additional observations from a re-analysis of the deposited data

How the results depend on the processing

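No paired analysis was possible because the MUT and WT lines share no line or replicate number. With 2 lines per genotype, what can be told is limited by the spread between lines and by the unknown depth. With the same number of peaks in each library, regions called in both MUT and no WT line numbered 26 in place of 190, the opposite 29 in place of 2, promoters 35 in place of 164 and 24 in place of 1, and lists above in both MUT lines 2 in place of 7. The difference in share then turned for neuronal function (-0.420 points), mesoderm (-2.94 points, from 2.94, within the spread between lines), formative and primed pluripotency (-3.33 points) and neural crest and surface ectoderm (-6.25 points). All called promoters then differed by 0.550 points. Fewer peaks are compared, and a difference in peak number is taken out, both by construction. Of regions kept by their signal relative to the common regions, 4 were left, as above. Without the weakest 25% of peaks, WT-only regions numbered 1 and the share of formative and primed pluripotency differed by -3.33 points. With 500 bp of overlap, 2 promoters were WT-only. Leaving out a line drops a condition of each pattern, so the counts that follow can only stay or rise. Leaving out each line gave 190 regions as 197 to 440 (440 without CM69, 382 without WT72), the 2 opposite as 2 to 18 (18 without CM59, 17 without WT70), the 164 promoters as 170 to 382 (382 without CM69, 343 without WT72), the 1 opposite as 1 to 20 (20 without CM59, 18 without WT70), and the 7 lists as 7 to 13 (13 without WT72, 11 without CM69).

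By rank, each alternative gave 0 regions in either direction, with log2 signal as the exception (3 higher, 4 lower). By width, the 2 wider regions became 0 with the equal number of peaks, without the weakest 25%, without centring and by the widest peak, and 0 to 4 without a line (0 without CM59, 4 without WT72). The 2 narrower became 1 with the equal number of peaks, 0 without the weakest 25%, without centring and by the widest peak, and 0 to 2 without a line (0 without CM59 or WT70, 1 without CM69). The cause was not tested. Over the lists and named promoters, 463 comparisons kept their value within the spread, 21 moved and 4 turned by more than it. The log2 ratio of peak number was 0.44 to 0.67 without a line (0.55 with all).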
